A study of Arabidopsis thaliana with 8 samples.

Results

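The hypoxia response of Arabidopsis thaliana was followed through 5 genes, HRE2, HRA1, PDC1, WIP5 and ADH1, in Col-0 seedlings that were starved of sulfate and then given sulfate again. The members were taken as the probe sets of HRE2 (AT2G47520), ADH1 (AT1G77120) and PDC1 (AT4G33070), and of HRA1 and WIP5 under the loci to which the annotation gives these names. A probe set could be named for 3 of the 5 genes, out of 14162 genes with a named probe set and 22746 probe sets on the ATH1 array. HRA1 (AT3G10040) was named by the platform annotation, and HRE2 and PDC1 by tables of the study. ADH1 was not analysed here, because the tables used here pair no probe set with its locus. WIP5 is in the annotation the name of AT1G51220, a WIP domain protein, and no probe set was paired with it either. The name may have been meant for AT4G33560, a further hypoxia gene with a probe set, but no source used here gives it that name; AT4G33560 is described with the list genes and stands outside the counts of the 3 genes below. HRE2 and PDC1 are named only through tables of genes with a high ratio of starved over fed seedlings in experiment 1, and HRA1 stands in the study's table of lowered transcription factors. Their direction in that comparison was therefore in part chosen on these arrays and is not independent evidence.

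The 8 arrays hold 1 array for each of 4 conditions in each of 2 experiments, which the study calls replicates (n = 2 per condition). FN seedlings stayed in full nutrition medium with 3 mM sulfate. The -S seedlings were raised on 150 μM sulfate, moved at an age of 7 days to medium with no sulfate, and harvested after 48 h there. The 30' S and 3 h S seedlings were starved in the same way and then received 500 μM sulfate for 30 min or 3 h. All were whole wild-type seedlings in sterile, shaken liquid culture, harvested at an age of 9 days, with flasks pooled for a sample. The labels give no oxygen treatment. By the methods the resupplied flasks were opened and dosed, so sulfate, the opening of the flask and the time after it cannot be told apart over -S. The starvation medium also holds less nitrate and ammonium than FN medium, and over FN these salts and sulfate cannot be told apart.

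Plants answer low oxygen with a small, conserved set of genes. Ethylene response factors (ERFs) of group VII, to which HRE2 and RAP2.12 belong, carry an amino-terminal cysteine through which they are broken down as long as oxygen is present, and they activate their targets when it is lacking. PDC1, a pyruvate decarboxylase, and ADH1, an alcohol dehydrogenase, carry out ethanolic fermentation, which regenerates NAD+ when respiration stops, and HRA1 is a trihelix factor, raised by low oxygen, that attenuates the action of RAP2.12.

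Values are MAS 5.0 signals on a linear scale, with array medians between 41.9 and 47.6. The floor of an array is the signal below which the share of its probe sets called absent lies, at 17.2 to 20.3 in experiment 1 and 10.9 to 13.5 in experiment 2. HRE2, PDC1 and HRA1 all stood near this floor, which limits the precision of their values. Where 4 signals of a gene are listed, they run from FN over -S and 30' S to 3 h S. Differences were tested with limma on log2(signal + 16) over 17138 probe sets, with 1 fit to all arrays, a term for the experiment, and Benjamini-Hochberg adjusted p against a limit of 0.05. Ratios are of raw signals within an experiment, and log2 changes, given with their SE (n = 2), are of signal + 16, which makes them smaller at low signals. A ratio with a signal below the floor describes the measured signals only, and the ratio after raising such signals to the floor is given where the result turns on it. The p-values measure the spread between these samples, and the comparisons share arrays. In RNA of whole seedlings fewer cells that express a gene and less of its RNA per cell cannot be told apart. RCA, the Rubisco activase of green tissue, had signals of 798.5 to 1250.5 in experiment 1 and 1701.1 to 2148.4 in experiment 2, and PYK10, a root beta-glucosidase, had 2701.2 to 3693.9 over all arrays. Shoot and root RNA were thus present on every array, and RCA was lower throughout experiment 1; its part in the results was not tested.

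HRE2, the ERF whose gene is itself raised by low oxygen, was highest after 3 h of sulfate. Its signals were 7.5, 26.9, 30.2 and 39.2 in experiment 1. In experiment 2 they were 6.8, 7.8, 6.9 and 40.7. The 3 h S signals stood above those of every other array, and both FN signals were below the floor. The experiments parted in between, since HRE2 was already above the floor in -S of experiment 1 and still below it in -S and 30' S of experiment 2.

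Against FN, HRE2 at 3 h was at least 2.59-fold higher when the FN signals are raised to the floor, as the geometric mean of 1.93 in experiment 1 and 3.48 in experiment 2. The ratio of the measured signals was 5.23 in experiment 1 and 5.99 in experiment 2. The log2 change of 1.27 ± 0.28 missed the limit (limma, adjusted p = 0.107, with alternatives between 0.00573 and 0.922). Of all probe sets limma called 0.414% higher and 0.146% lower than in FN, and 0 of the 3 genes. Once FN of experiment 2 is left out HRE2 is called (log2 1.56, adjusted p = 0.00573), but that fit rests on 1 FN array and calls 4639 probe sets against 96. The ratio was over 2 in both experiments, with both 3 h S signals above the floor, as it was for 1.27% of the 15149 probe sets at or above the floor in 3 h S. With signals raised to the floor, a choice made after seeing the data, 1.04% pass and HRE2 does not, because of experiment 1.

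Over -S, HRE2 at 3 h had ratios of 1.46 and 5.22 in experiments 1 and 2, and a log2 change of 0.81 ± 0.28 (limma, adjusted p = 0.271). Of all probe sets 0.735% were called higher and 0.327% lower than in -S, and 0 of the 3 genes. At 30 min the ratios over -S were 1.12 and 0.885, the latter with both signals below the floor (log2 0.03 ± 0.28, adjusted p = 0.999). From 30 min to 3 h the ratios were 1.3 and 5.90, with a log2 change of 0.78 ± 0.28 (adjusted p = 0.281), where limma called 0.385% of all probe sets higher, 0.163% lower, and 0 of the 3 genes. In -S over FN the ratio in experiment 1 was 3.59, or 1.33 with the FN signal raised to the floor. In experiment 2 it was 1.15, between signals below the floor. The log2 change was 0.47 ± 0.28 (limma, adjusted p = 0.371). Ordered by level, 3 h S was highest in both experiments, in experiment 1 by a ratio of only 1.3 over 30' S. In experiment 2 the signals of the 3 other conditions were all below the floor.

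**Figure D1:**
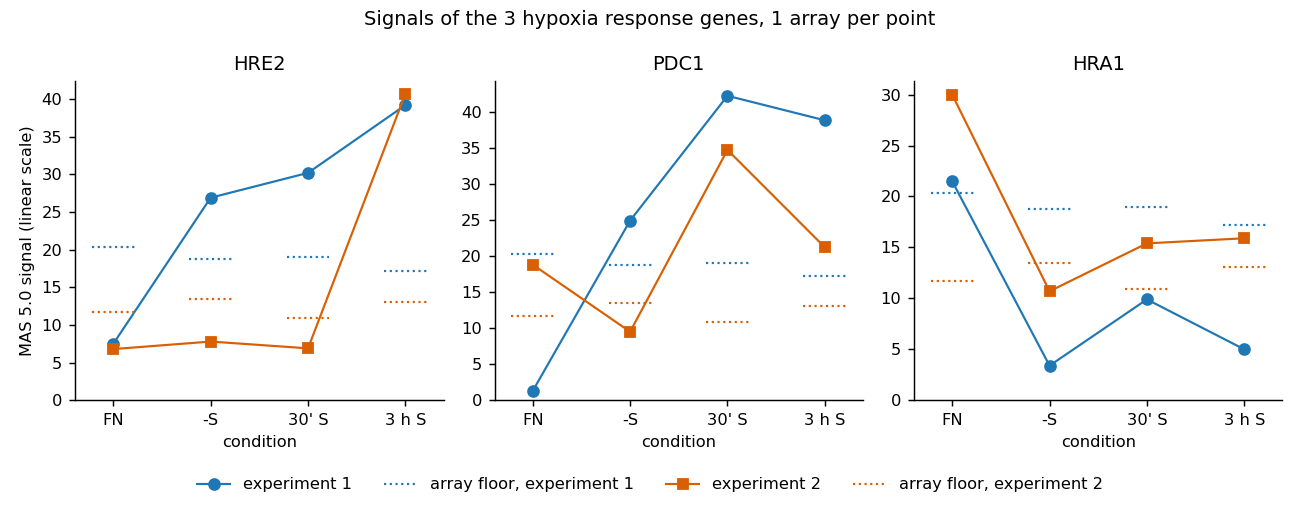
MAS 5.0 signals (linear scale) of HRE2, PDC1 and HRA1 in the 4 conditions, with 1 point per array, lines joining the arrays of an experiment and dotted bars for the floor of each array. HRE2 reaches 39.2 and 40.7 in 3 h S, PDC1 42.2 and 34.7 in 30' S, and HRA1 is highest in FN, at 21.5 and 30.0.

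PDC1, which converts pyruvate to acetaldehyde as the first step of ethanolic fermentation, had its highest signal after 30 min of sulfate in both experiments. Its signals were 1.3, 24.9, 42.2 and 38.8 in experiment 1. In experiment 2 they were 18.8, 9.5, 34.7 and 21.2. The 30' S signals stood above all those of FN and -S, and the 3 h S signals overlapped with those of 30' S and -S. FN was far below the floor in experiment 1 and above it in experiment 2.

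In -S over FN the experiments disagreed in direction, with a PDC1 ratio of 19.2 in experiment 1 and 0.505 in experiment 2. The first ratio rests on an FN signal of 1.3 and the second on a -S signal of 9.5, both below the floor of their arrays. Raised to the floor, the ratios are 1.23 and 0.718. The log2 change of both experiments together was 0.40 ± 0.38 (limma, adjusted p = 0.565; 95% interval -0.50 to 1.29). Leaving out FN of experiment 1 gives -0.35, and leaving out FN of experiment 2 gives 1.14, which is called (adjusted p = 0.00295). After 30 min of sulfate PDC1 stood 1.69 and 3.65 times as high as in -S (log2 0.75 ± 0.38, adjusted p = 0.999). Here limma called 0.0% of all probe sets higher and 0.00583% lower, with 509 at an unadjusted p under 0.05 and 0 called by the methods' test, and it called 0 of the 3 genes.

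At 3 h the PDC1 ratios over -S were 1.56 and 2.23 (log2 0.48 ± 0.38, limma, adjusted p = 0.649), and those over 30' S 0.919 and 0.611 (log2 -0.27 ± 0.38, adjusted p = 0.799). Over FN they were 29.8, or 1.91 with the FN signal raised to the floor, and 1.13 (log2 0.88 ± 0.38, adjusted p = 0.274), and the change is called when FN of experiment 2 is left out (log2 1.62). PDC1 thus had a higher signal after resupply than in -S in both experiments, without passing the test.

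PDC2, a second pyruvate decarboxylase, was well above the floor on every array. Its signals were 179.2, 347.5, 429.1 and 272.1 in experiment 1 and 248.7, 296.1, 320.7 and 247.0 in experiment 2. Like PDC1 it had its highest signal at 30 min in both experiments and a lower one at 3 h. The ratios of -S over FN were 1.94 and 1.19, with a log2 change of 0.57 ± 0.21 (limma, adjusted p = 0.2) that is called when FN of experiment 2 is left out. LDH1, the lactate dehydrogenase of the other fermentation route, lay between 136.1 and 177.4 over the 8 arrays, with ratios of -S over FN of 1.12 and 0.906.

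HRA1, the attenuator of the response, was lower in starved than in FN seedlings. Its signals were 21.5, 3.4, 9.9 and 5.0 in experiment 1. In experiment 2 they were 30.0, 10.7, 15.4 and 15.9. The FN signals stood above those of every other array and above the floor, and both -S signals were below it. The 30' S and 3 h S signals overlapped with each other and with those of -S.

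HRA1 fell in -S by 0.87 ± 0.15 on the log2 scale (limma, adjusted p = 0.0435, with alternatives between 0.00439 and 0.876). The ratios were 0.158 and 0.357, and with the -S signals raised to the floor the decrease was at least 1.14-fold in experiment 1 and 2.22-fold in experiment 2, with a geometric mean of 1.59. Of all probe sets limma called 0.543% lower and 0.875% higher in -S, and of the 3 genes 1 lower and 0 higher. The direction was the same in all 18 alternatives, but the call held in only 4: it is lost when any single array other than FN of experiment 2 is left out, and with no replicate block (adjusted p = 0.255). The measured signals of HRA1 after resupply were above those of -S in both experiments, with ratios of 2.91 and 1.44 at 30 min (log2 0.33 ± 0.15, adjusted p = 0.999) and 1.47 and 1.49 at 3 h (log2 0.19 ± 0.15, adjusted p = 0.651), but the signals of experiment 1 and the -S signal of experiment 2 were below the floor and give no order there. At 3 h HRA1 had 0.233 times its FN signal in experiment 1, or 0.8 times with the 3 h S signal raised to the floor. In experiment 2 it had 0.53 times its FN signal. The log2 change was -0.68 ± 0.15 (limma, adjusted p = 0.102), and -0.76 when FN of experiment 2 is left out.

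The other genes of the pathway were taken from a list of 54 Arabidopsis genes known for the low-oxygen response, of which 27 have a named probe set and 25 were tested. The list spans fermentation (3 of 5 genes named), group VII ERFs (2 of 5), carbon supply (1 of 4), oxygen sensing (0 of 10) and further core genes raised by hypoxia (21 of 30). In -S over FN limma called 0 of the 25 higher and 2 lower, HRA1 and AT4G33560. Of all probe sets tested 0.875% were called higher and 0.543% lower. The median log2 change of the 25 genes was 0.01, against 0.05 for all probe sets tested. Of the 27 genes, 12 had a lower and 7 a higher signal in -S in both experiments. The share of all probe sets that did so was not counted, so these counts have no background. How a gene was named went with its direction. The 5 named only by study tables, which list genes changed on these arrays, all had a positive log2 change. They are HRE2, PDC1, RAP2.12, PFK3 and AT3G13310, and their direction was thus in part chosen on these arrays. The 20 tested genes named by the platform annotation had a median of -0.24, with 12 negative and 8 positive. Of all probe sets tested 43.5% had a negative log2 change. The other comparisons had 0 calls among the 25. In 30' S over -S limma called 0.0% of all probe sets higher and 0.00583% lower. At 3 h over -S these shares were 0.735% and 0.327%, and over FN 0.414% and 0.146%. From 30 min to 3 h they were 0.385% and 0.163%. For 30' S over -S the median of the 25 was 0.06, against -0.01 for all probe sets. At 3 h over -S it was 0.13 against -0.03, and over FN -0.08 against 0.04. From 30 min to 3 h it was 0.01 against -0.02.

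**Figure D2:**
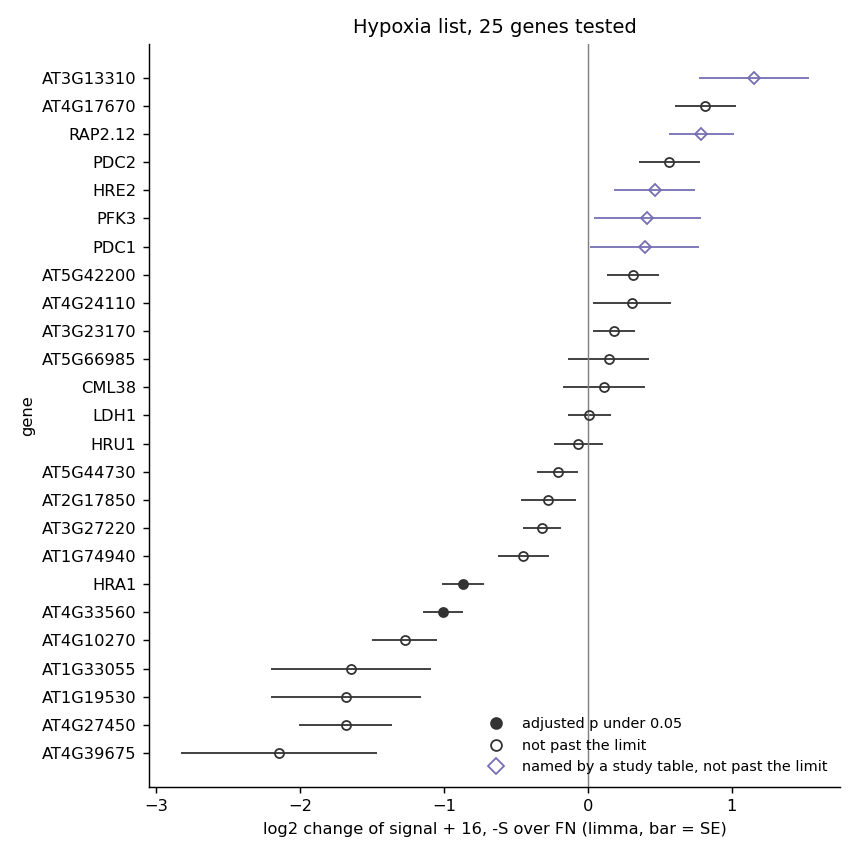
Log2 change of signal + 16 in -S over FN for the 25 tested genes of the hypoxia list, with bars for the SE of limma, filled points for an adjusted p under 0.05 and diamonds for genes named by study tables. The values run from -2.15 for AT4G39675 to 1.16 for AT3G13310, and of the 25 only HRA1 and AT4G33560 pass the limit.

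Several core genes stood below FN together with HRA1. By the raw ratio 5 of the 21 list genes at or above the floor in FN of both experiments were under 0.5 in both. Of the 14477 such probe sets of the array 0.939% were. The list was chosen with earlier results of these data known, and the study lists HRA1 as lowered. The count is therefore not independent evidence. The 5 genes are HRA1, AT4G33560, AT4G10270, AT4G27450 and AT4G39675, and the loci without a name have no role given here. With signals raised to the floor, 3 of the 21 remain under 0.5 in both, AT4G10270, AT4G27450 and AT4G39675, against 0.801% of the probe sets, and HRA1 and AT4G33560 do not, because of experiment 1. Of 16 list genes at or above the floor in -S of both experiments 0 were over 2 in both, against 1.49% of the 15088 such probe sets. AT4G27450 is named after its values had been seen, as are AT1G19530, AT1G33055, AT4G24110, CML38 and HRU1 below.

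AT4G33560 had signals of 27.2, 5.9, 8.1 and 10.4 in experiment 1. In experiment 2 they were 39.0, 10.9, 17.3 and 14.9. As for HRA1, FN stood above all other arrays, both -S signals were below the floor, and in experiment 1 the 30' S and 3 h S signals were below it too. It fell in -S by 1.01 ± 0.14 on the log2 scale (limma, adjusted p = 0.018). With the -S signals raised to the floor the decrease was at least 1.45-fold in experiment 1 and 2.89-fold in experiment 2, with a geometric mean of 2.04. The call held in 9 of 18 alternatives but not when any -S, 30' S or 3 h S array is left out (adjusted p = 0.0586 to 0.26), and not with no replicate block (adjusted p = 0.157). At 3 h the measured signal was 0.382 times that of FN in both experiments, or 0.632 times in experiment 1 with the 3 h S signal raised to the floor (log2 -0.77 ± 0.14, adjusted p = 0.0697). By the measured ratio 1 of the 21 list genes, AT4G33560, was under 0.5 in both experiments there, against 0.56% of the 14477 probe sets, and with signals raised to the floor 0 were, against 0.47%.

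AT4G10270 had signals of 74.3, 13.9, 23.0 and 16 in experiment 1 and 90.1, 39.0, 33.6 and 50.3 in experiment 2. Its log2 change in -S was -1.27 ± 0.22 (limma, adjusted p = 0.0525), which is called after quantile normalization (adjusted p = 0.0403) and when FN of experiment 2 is left out. AT4G27450 had signals of 292.7, 52.5, 60.6 and 52.4 in experiment 1 and 369.5, 153.1, 150.1 and 234.4 in experiment 2, with a log2 change of -1.68 ± 0.32 in -S (adjusted p = 0.065). Both loci had FN signals above those of all other arrays, and in both the 3 h S signal was nearer to FN in experiment 2 than in experiment 1.

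AT4G39675 had signals of 190.3, 0.7, 0.7 and 3.5 in experiment 1. In experiment 2 they were 44.7, 22.2, 11.2 and 33.1. The size of the difference was far greater in experiment 1, and its log2 change of -2.15 ± 0.68 in -S did not pass the test (limma, adjusted p = 0.163). AT1G19530 had 167.1 in FN and 8.5 in -S of experiment 1, but 121.0 and 83.7 in experiment 2 (log2 -1.68, adjusted p = 0.158). AT1G33055 had 149.1 in FN and 12.1 in -S of experiment 1, but 131.6 and 72.6 in experiment 2 (log2 -1.65, adjusted p = 0.176). At 3 h AT1G33055 stood at 10.2 in experiment 1 and at 127.9, close to FN, in experiment 2. AT4G39675, AT1G19530 and AT1G33055 are called when FN of experiment 2 is left out, a fit that calls 4860 probe sets against 243.

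**Figure D3:**
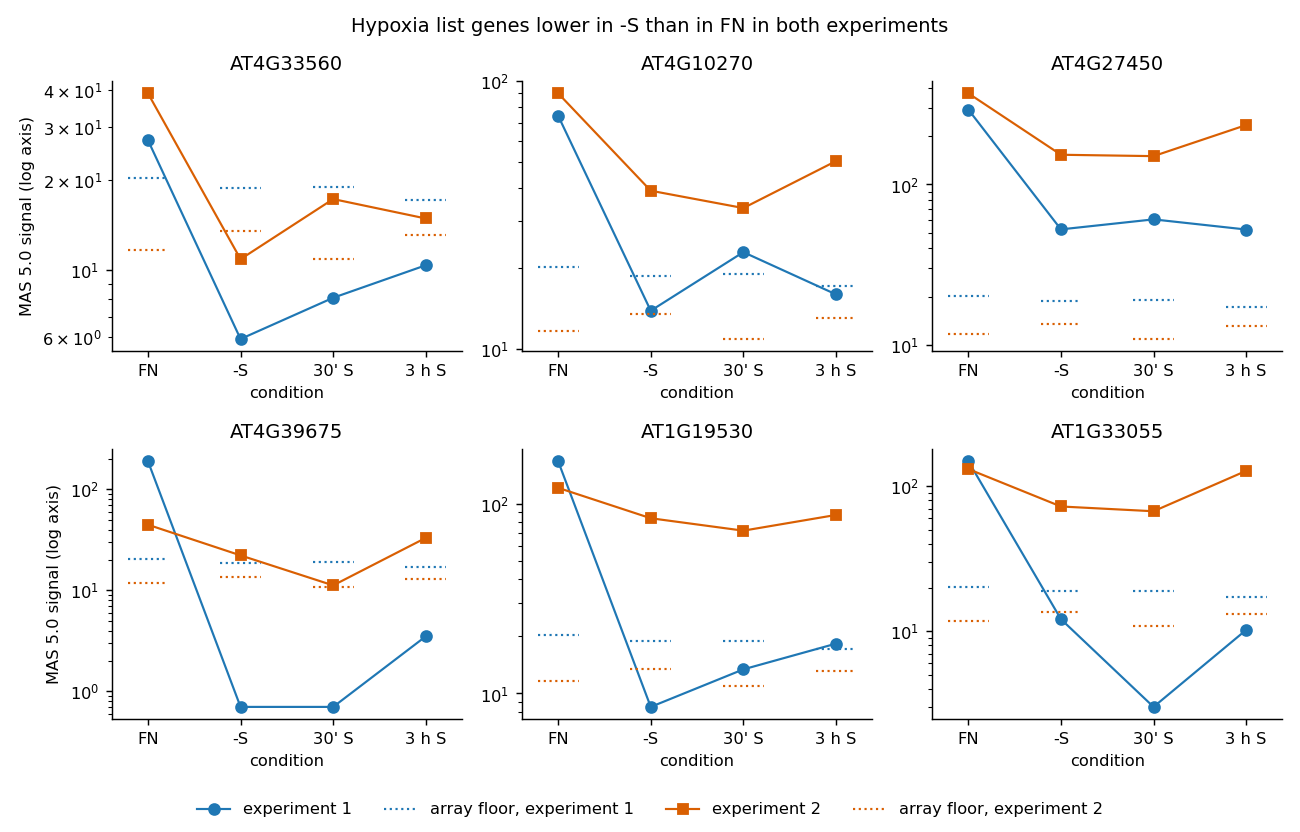
MAS 5.0 signals (log axis) of 6 list genes that were lower in -S than in FN in both experiments, with 1 point per array and dotted bars for the floor of each array. In experiment 1 AT4G39675 has 190.3 in FN and 0.7 in -S, and AT1G33055 at 3 h has 127.9 in experiment 2 and 10.2 in experiment 1.

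RAP2.12, the constitutively expressed ERF of group VII, had signals of 292.5, 643.8, 730.7 and 656.2 in experiment 1. In experiment 2 they were 521.3, 733.9, 713.6 and 624.8. FN was lowest in both experiments and did not overlap with the starved and resupplied arrays. The ratios of -S over FN were 2.2 and 1.41, and the log2 change of 0.79 ± 0.23 missed the limit (limma, adjusted p = 0.142) but is called when FN of experiment 2 is left out. Among the list genes AT3G13310 had the highest log2 change in -S, 1.16 (limma, adjusted p = 0.17), with ratios of 3.79 and 1.89. RAP2.12 and AT3G13310 were named only by study tables of genes changed on these arrays. Their direction over FN was therefore in part chosen on these arrays and is not independent evidence.

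PFK3, a phosphofructokinase, differed in direction between the experiments, with ratios of -S over FN of 2.71 and 0.77 from signals above the floor. AT4G24110 had 3.17, or 1.20 with its FN signal raised to the floor, and 0.835. CML38, a calmodulin-like protein, had 0.847 in experiment 2 and was below the floor in FN and -S of experiment 1. HRU1, a universal stress protein, had 0.908 and 1.00. NRT2.1, a nitrate transporter and the only nitrate marker with a named probe set, had signals of 45.2 in FN and 261.8 in -S of experiment 1 and of 179.7 and 61.7 in experiment 2, which makes its ratio, like that of PDC1, high in experiment 1 and below 1 in experiment 2. NRT2.1, like PFK3 and PDC1, was named only by a study table. The part of NRT2.1 in the values of the hypoxia genes was not tested. With 1 array per condition in an experiment, a difference between the experiments has no test.

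**Figure D4:**
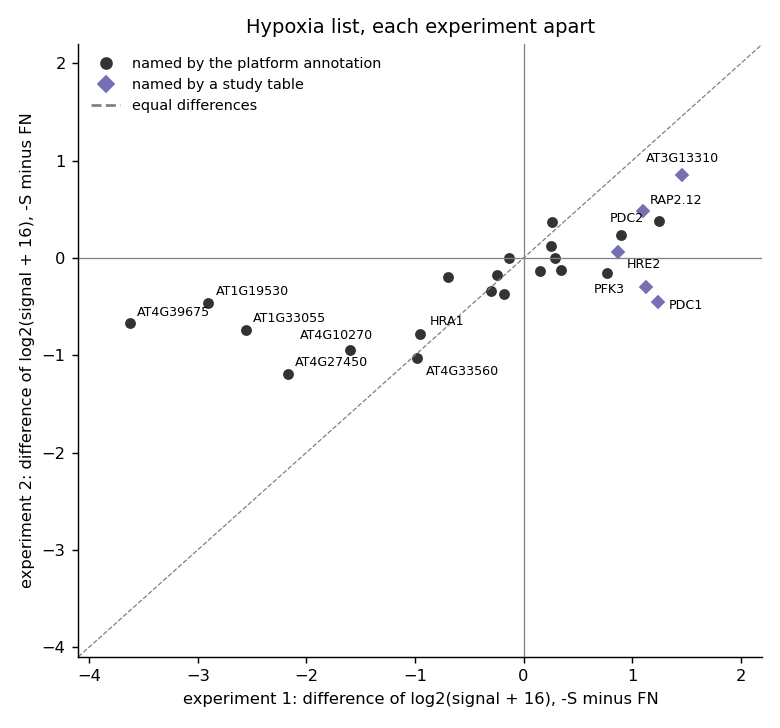
Difference of log2(signal + 16) between -S and FN in experiment 1 (horizontal axis) and experiment 2 (vertical axis) for the 25 tested genes of the hypoxia list, with diamonds for genes named by study tables and a dashed line for equal differences. HRA1 and AT4G33560 lie near the line, AT4G39675, AT1G19530 and AT1G33055 lie far from it, and PDC1 and PFK3 have opposite signs.

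The genes with the most similar profile were sought by Pearson's r of log2(signal + 16) over the 8 arrays, which share experiments and scaling. The search ran over 10004 tested probe sets with 1 named gene. For HRE2 the most similar genes were AT2G45460 (r = 0.966), AT1G13810 (r = 0.949) and AtRZ-1b (r = 0.946). All 3 had a higher signal in 3 h S than in FN in both experiments, as AT1G13810 with 76.3 against 50.7 and 77.2 against 40.1. For PDC1 they were AT1G16500 (r = 0.969), AT2G20760 (r = 0.96) and AT1G29195 (r = 0.957), and AT1G29195 was highest at 30 min in both experiments, at 78.9 and 59.1. For HRA1 they were AT1G04800 (r = 0.973), AT2G44060 (r = 0.972) and AT3G27400 (r = 0.967), and AT3G27400 had 39.1 and 45.4 in FN and 10.9 and 17.3 in -S of experiments 1 and 2. None of these 9 genes is in the hypoxia list, and 33, 39 and 55 probe sets exceeded r = 0.9 for HRE2, PDC1 and HRA1. That the 9 share the highs and lows of their member follows from the choice by r. The names describe a profile over few arrays.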

How the data were processed

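RNA of whole seedlings was hybridised to 8 Affymetrix ATH1 arrays, and conditions were taken from the sample titles. The deposited values are intensity values on a linear scale, summarised per probe set and scaled per array by the authors with MAS 5.0, to a scaling target not stated in these sources (the 2% trimmed mean of each array came to about 99.4). The share of absent calls that the study lists for each array set its floor. Probe sets were named by the platform annotation (13513 with 1 gene) or otherwise by the study's tables (807), 503 had several genes, and 7923 had no name here. Those tables also hold the authors' own ratios, which were not used.

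In R 4.3.3 with limma 3.58.1, lmFit and eBayes (no trend) were run on log2(signal + 16), with a coefficient for each condition and the experiment as block, because the study forms its ratios within experiments. Probe sets that reached the floor on fewer than 2 arrays were left out (5608). The fit had 3 residual and 3.99 prior degrees of freedom and was tested on simulated data. Whether the experiment numbers pair the samples was checked by correlating the difference of experiments 1 and 2 between conditions. FN had r of 0.311 with -S, 0.079 with 30' S and 0.223 with 3 h S. Pairs without FN had r from 0.597 (30' S with 3 h S) to 0.71 (-S with 3 h S). The pairing was thus weaker for comparisons over FN. The number of arrays limits the precision. Alternatives changed the offset, filter, scaling, block, test and arrays used; the methods' test is the study's two-sided test of group means with unequal variances, run here on the same log2 values. Python 3.11.15 (pandas 2.3.3, numpy 2.4.6, matplotlib 3.10.9) served for tables and plots.

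Genes are named if they are members or among the 3 most similar profiles. List genes are named if they were called or are close relatives of a member (PDC2 and RAP2.12). Those at an end of their list in -S over FN are named too. AT4G10270 was counted with the relatives by the rule, but no relation to a member as defined here is shown. Other exceptions are stated. The members and lists were chosen with earlier results of these data known. Lists for ethylene, low energy and control genes had 0 named probe sets. Of 3 sulfur starvation markers limma called 3 higher in -S over FN, against 0.875% of all probe sets tested. The 3 markers were named only by study tables, so their direction was in part chosen on these arrays and is not independent evidence.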

Additional observations from a re-analysis of the deposited data

Results flagged for a closer look

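The measured ratios of PDC1, PFK3 and NRT2.1 went in opposite directions in the experiments, each by more than 1.5-fold and with at least 1 of the compared signals at or above the floor in each experiment. PDC1 had a ratio of -S over FN of 19.2 in experiment 1 and 0.505 in experiment 2, each with a signal below the floor. With such signals raised to the floor they were 1.23 and 0.718, neither past 1.5-fold. PFK3 had a ratio of 3 h S over FN of 2.59 in experiment 1 and 0.581 in experiment 2. NRT2.1 had a ratio of -S over FN of 5.79 in experiment 1 and 0.343 in experiment 2. PDC1, PFK3 and NRT2.1 were named only by study tables, which list genes changed on these arrays. Their ratios were thus in part chosen on these arrays and are not independent evidence. These differences between experiments were not tested, since each ratio rests on 1 array per condition.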

How the results depend on the processing

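The 15 values of HRE2, PDC1 and HRA1 were recomputed under 18 alternatives each, and 248 of 270 kept direction and side of the limit. Only the fall of HRA1 in -S was called in the main fit, and its call held in 4 of 18. For the other values keeping the side meant staying uncalled. The fall of HRA1 in -S (log2 -0.87) lost its call with an offset of 1 (-1.88) or 32 (-0.57), and, at an unchanged log2 of -0.87, without a filter on low signals, with no replicate block, in a fit on the compared conditions alone, by the methods' test (adjusted p = 0.876) and with an intensity trend (adjusted p = 0.051). Leaving out 1 array gave log2 values from -0.94 to -0.79. The cause was not tested. The other values that changed did so when 1 array was left out. Their log2 ranges were -0.34 to 0.39 (30' S over -S) and 0.94 to 1.61 (3 h S over FN) for HRE2, -0.35 to 1.14 (-S over FN), 0.14 to 1.62 (3 h S over FN) and -0.57 to 0.034 (3 h S over 30' S) for PDC1, and -0.81 to -0.55 (3 h S over FN) for HRA1. The replicate block changed no other call of these genes. With signals raised to the floor, an alternative chosen after seeing the data, the list genes under 0.5 in both experiments went from 5 to 3 in -S over FN and from 1 to 0 at 3 h over FN, and those over 2 at 3 h over FN from 1 to 0.

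Over all probe sets, counts of calls rest on single arrays and on the test. In -S over FN limma called 243, with no replicate block 119, by leaving out 1 array 47 to 4860. At 30 min over -S these counts were 1, 0, and 0 to 8. At 3 h they were 182, 77, and 6 to 1195 over -S, 96, 22, and 0 to 4639 over FN, and 94, 31, and 0 to 1299 over 30' S. The methods' test called 0 in each, with 252 to 719 at an unadjusted p under 0.05.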
